A study of Mus musculus with 33 samples.

Results

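Endothelial cells sorted from mouse bone were compared with stem and progenitor cells sorted from mouse bone marrow, gene by gene, over the 8103 genes whose mean level across 6 libraries was at least 5 FPKM (fragments per kilobase of transcript and per unit of sequencing depth, a level corrected for gene length and library size). The table lists 38899 usable genes, and the minimum sets aside the many genes seen with only stray reads. The members were chosen by their mean over both groups together, and the direction of a difference was not a criterion. A gene high in a single group could enter through that group.

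The first group, bone EC, is 3 libraries of GFP-positive cells from femur and tibia of untreated C57BL/6 mice of the genotype Cdh5-mTnG, aged 8 to 12 weeks. The GFP marks cells through Cdh5, the gene of the endothelial cadherin, so the sort itself used that gene. The second group, LSK, is 3 libraries of cells sorted from femur and tibia as lineage-negative, Sca-1-positive and c-Kit-positive, from untreated wildtype C57BL/6 mice of the same age range. Sca-1 is the product of Ly6a and c-Kit that of Kit, so these 2 genes were used by that sort. Genotype therefore differs between the groups together with cell type. Both groups were made into libraries with the same low-input kit. The series holds 33 libraries in 11 groups of 3, and values from 4 further groups are given where they help to read a gene. These are whole marrow (BMC) and lineage-negative cells (Lin-), both wildtype, untreated and made with another kit, GFP-positive cells of Cdh5-mTnG bones after 9 Gy of radiation, and untreated GFP-positive cells from the femur diaphysis of Cdh5-mTnG mice, which lie in a separately normalized table. The labels do not say whether the libraries of a group came from separate animals, so the p-values measure the spread between these libraries, which may be partly technical.

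Bone endothelium lines the arteries and the wide, thin-walled sinusoids through which blood cells leave the marrow. Endothelial cells hold each other through cadherin and claudin junctions, respond to VEGF and angiopoietins through receptor tyrosine kinases, and present adhesion molecules and growth factors to nearby cells. LSK cells contain the blood stem cells and the multipotent progenitors. Blood stem cells arise from endothelium in the embryo, and both lineages keep in use a set of transcription factors and surface proteins.

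The LSK libraries held fewer reads in genes (1.55M to 1.87M) than the bone EC libraries (2.72M to 3.26M). More genes reached 1 FPKM in LSK (14925 to 18109, the highest in replicate 1) than in bone EC (12785 to 12878). The FPKM of all genes summed to 266764 to 292714 in LSK and to 429832 to 472785 in bone EC, so a gene with the same FPKM in both holds a smaller share of the bone EC total. Cdh5, Kit and Ly6a were used by the sorts, so their levels check the labels only in part. Endothelial Cdh5 read 64.1, 86.7 and 93.7 FPKM in bone EC and at most 0.329 in LSK. Emcn, an endothelial sialomucin, read 45.3, 61.5 and 69 FPKM against 3.14 to 4.6. Kit read 78.7, 104 and 88.4 FPKM in LSK and 5.27 to 6.84 in bone EC. Ly6a went the other way, at 257 to 366 FPKM in bone EC and 82 to 83.4 in LSK. The sorts did not use Emcn or Flt3. Flt3, a receptor of multipotent progenitors, was at 57.9 to 61.7 FPKM in LSK against 3.87 to 5.71. Slamf1, a marker of the stem cells within LSK, was low in LSK too (0.363 to 1.27 FPKM) and is no member. Ptprc, which encodes the leukocyte antigen CD45, read 43.3 to 72.7 FPKM in bone EC, above the 30.8 to 32.4 of LSK, a difference not called with every scaling. Leukocyte genes were thus measured in bone EC beside endothelial ones, and the lists of blood cell markers below give their levels. In such bulk libraries, a gene can be higher because more cells carry it or because each cell holds more of it, and these cannot be told apart.

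Of the 8103 members, 8085 entered the fit, in which a gene needed at least 1 FPKM in 3 of the 6 libraries; the other 18 did not. Each gene was tested on log2(FPKM + 1), and differences below are bone EC minus LSK on that scale, which understates the change of low genes. At an adjusted p under 0.05, 5034 members were called different (62.3% of those fitted, against 60.1% of all 14321 genes in the fit). The groups did not overlap for 5522 members (68.3%). This share was not counted over all genes in the fit, so whether it is particular to the members is not known. In bone EC 2925 members were higher (36.2%) and 2109 lower (26.1%), and 3051 were neither, of which 2892 had a fitted difference within 0.5. On the deposited scale, the larger differences lay mostly on the bone EC side. There, 852 members were higher by at least 4-fold and 108 by at least 32-fold, against 258 and 21 that were lower.

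The split between directions depends on how the libraries are put on one scale. The median difference over the members was 0.10 as deposited. It was -0.57 after conversion to TPM, which gives every library the same total, and -0.29 in a limma voom fit on the read counts recovered from the table. Accordingly 58.1% of the calls were higher in bone EC as deposited, 25.7% with TPM (1539 higher and 4442 lower) and 36.2% with voom (2002 higher and 3533 lower). Small differences in favour of bone EC are therefore tied to the deposited scale, while the direction of large ones is not. Of the 852 members at least 4-fold higher, 848 were called the same way under every scaling tried, as were all 258 at least 4-fold lower. The numbers of members past each fold were counted on the deposited scale alone. A gene or list whose direction changes with the scale is named as such below.

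**Figure D1:**
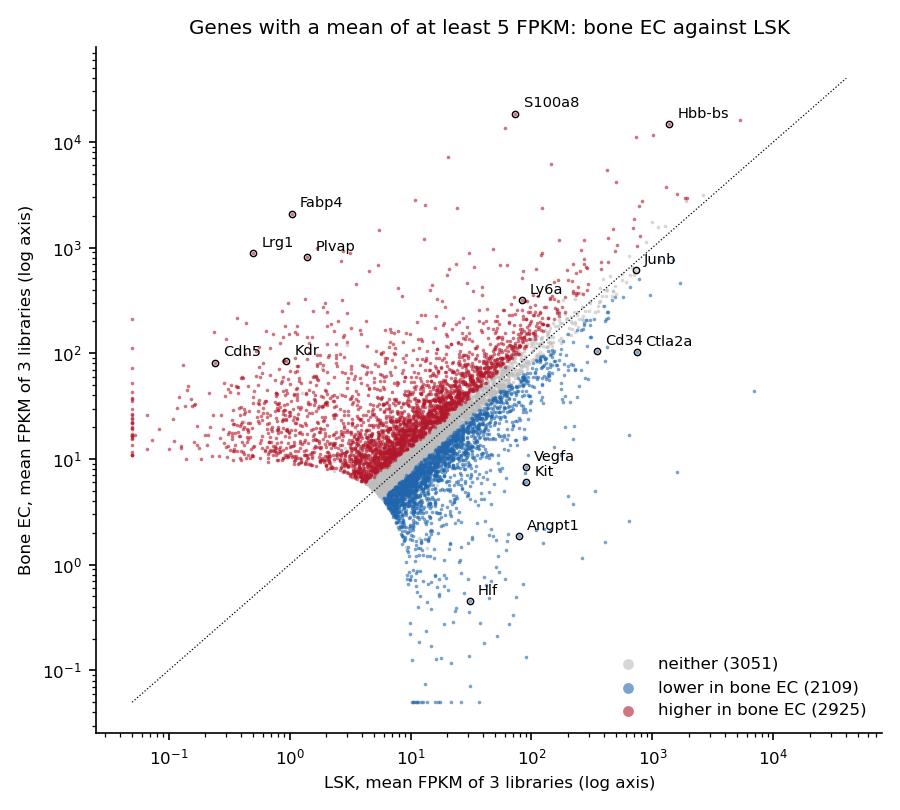
Mean FPKM of each of the 8085 fitted members in LSK (horizontal, log axis) and bone EC (vertical, log axis), with means under 0.05 drawn at 0.05, red for members called higher in bone EC, blue for lower and grey for neither; the dotted line marks equal levels. Endothelial Cdh5, Kdr, Plvap and Fabp4 and the blood cell genes S100a8 and Hbb-bs lie far above the line, while Kit, Hlf and Angpt1 lie far below it.

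Genes of endothelial junctions moved in one direction. All 10 junction genes that are members were higher in bone EC, with a median difference of 2.49, while 7 further genes of that list fell under the minimum level. Cldn5, the claudin of tight junctions in endothelium, read 179, 227 and 242 FPKM in bone EC and 0, 0.511 and 0.583 in LSK, a difference of 7.33 (SE 0.20, adjusted p = 2.0e-07). Its lowest bone EC library was far above the highest LSK library. Esam, an adhesion molecule that blood stem cells also carry, read 132, 149 and 179 FPKM against 9.9, 8.57 and 11.1, so LSK was low but not empty. Pecam1, which encodes CD31, likewise read 63 to 69.6 FPKM against 9.52 to 11.7. Gja4, a gap junction protein of arterial endothelium, read 11 to 16.2 FPKM against 0.214 to 1.22.

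Receptors and ligands of VEGF, angiopoietin and ephrin signalling were examined next. Of 18 members, 15 were higher in bone EC, 2 lower and 1 neither, with a median difference of 3.59. The 15 included both receptors and ligands. The ligand Efna1 read 44.2, 57 and 78 FPKM in bone EC (mean 59.7, against 0.572 in LSK), and Apln, the ligand of Aplnr, averaged 10.8 FPKM against 0.73. Kdr, the main VEGF receptor, read 83.6, 71.3 and 96.1 FPKM in bone EC and 1.44, 0.596 and 0.792 in LSK, a difference of 5.46 (SE 0.19, adjusted p = 3.9e-07). Flt4, the receptor of sinusoidal and lymphatic endothelium, read 25.5 to 39 FPKM against 0.1 to 0.265. Aplnr, the apelin receptor, read 139, 121 and 148 FPKM against at most 0.462. Tek, the angiopoietin receptor, read 42.1, 33.5 and 43.3 FPKM against 2.41, 3.07 and 3.06. The 2 genes that were lower in bone EC were the ligands Vegfa and Angpt1. Angpt1, the agonist of Tek, read 74.8, 78.6 and 82.4 FPKM in LSK and 1.35, 2.38 and 1.88 in bone EC (difference -4.81, SE 0.16, adjusted p = 2.8e-07). Vegfa read 82.6, 82.6 and 103 FPKM in LSK and 12.5, 7.31 and 5.33 in bone EC (difference -3.33, adjusted p = 2.0e-05).

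Because Kdr and Cldn5 were among the endothelial genes with the clearest separation, their promoter windows are shown, each from 250 bases before to 30 bases after the gene's first listed start (RefSeq, build GRCm38.p6, read along the gene's strand). The Kdr window is chr5:75978426-75978705 on the minus strand and the Cldn5 window chr16:18776597-18776876 on the plus strand. Capitals mark letters found by a search on both strands. In Kdr they are CCCACCC, the core bound by KLF factors, at base 184 of the window. In Cldn5 they are TGACAG, a MEIS core, at base 116, and 2 CCAAT boxes at bases 133 and 163, all 3 on the opposite strand, so that the window shows their complements. Of the 27025 genes with such a window, 16.6% hold CCCACCC, 17.9% TGACAG and 36.6% CCAAT, so none of these letters is rare, and a match is a description of the sequence and not of binding.
Kdr promoter: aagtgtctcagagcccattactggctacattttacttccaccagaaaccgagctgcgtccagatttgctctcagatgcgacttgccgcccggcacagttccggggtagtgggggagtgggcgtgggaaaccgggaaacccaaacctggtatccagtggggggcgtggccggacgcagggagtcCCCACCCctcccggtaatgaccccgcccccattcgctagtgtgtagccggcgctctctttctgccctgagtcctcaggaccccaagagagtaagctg
Cldn5 promoter: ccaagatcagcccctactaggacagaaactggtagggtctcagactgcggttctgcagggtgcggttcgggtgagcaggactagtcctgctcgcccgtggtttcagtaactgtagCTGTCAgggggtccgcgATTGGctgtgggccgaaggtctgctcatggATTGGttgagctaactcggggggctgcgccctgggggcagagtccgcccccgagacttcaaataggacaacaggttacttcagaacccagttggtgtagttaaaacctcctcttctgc

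Of 17 endothelial transcription factor genes among the members, 10 were higher in bone EC, 4 lower and 3 neither (median 1.5). Sox18, which drives vessel formation, read 128, 147 and 203 FPKM in bone EC and 0 to 0.446 in LSK. Epas1, a hypoxia-inducible factor, read 32 to 45.4 FPKM against 0.0681 to 0.74, and Ets1 41.9 to 55.5 FPKM against 3.6 to 4.77. The 4 lower genes were Hey1, Gata2, Mef2c and Erg, factors that are studied in endothelium but were more abundant in LSK. Hey1, a Notch target, read 16.2 to 20 FPKM in LSK and 1.75 to 3.12 in bone EC (difference -2.54, adjusted p = 1.4e-05). Gata2 read 45.4 to 82.2 FPKM against 14.3 to 16.8, and Erg 10.6 to 14 against 6.62 to 7.16.

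Notch and BMP or TGF-beta genes were divided. Of 15 members, 8 were higher, 4 lower and 3 neither, and their median of 0.56 turned to -0.07 with TPM. The Notch ligand Dll4 read 18.7, 19 and 19.7 FPKM in bone EC and 0.844 to 2.15 in LSK, while the ligand Jag2 read 19.1 to 22.1 FPKM in LSK and 4.11 to 6.2 in bone EC. Of the BMP receptors, Acvrl1, the endothelial ALK1, read 19.7 to 25.4 FPKM against 0.193 to 0.508, and its partner Eng 112, 112 and 146 FPKM against 19.7 to 23.6. The BMP target Id3 was higher too, at 213 to 275 FPKM against 31.1 to 45.5. Smad7, an inhibitor of TGF-beta and BMP signalling, went the other way, with 41.2 to 48.4 FPKM in LSK and 6.4 to 9.01 in bone EC (difference -2.40, adjusted p = 5.4e-06). The Notch targets Hes1 and Nrarp differed by -0.85 and -0.68, both lower in bone EC.

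Genes of sinusoids were nearly all higher, 17 of 18 members with a median of 4.30, the largest median of the endothelial lists. Plvap, which forms the diaphragms of endothelial pores and caveolae, read 728, 773 and 945 FPKM in bone EC and 0.818 to 1.95 in LSK. Gpr182, a receptor of sinusoidal endothelium, read 36.5 to 58.5 FPKM against at most 0.221. Cav1, the coat protein of caveolae, read 46.7 to 51.5 FPKM against 0.105 to 0.507. Lipid handling gave 13 of 16 members higher, 1 lower and 2 neither. Fabp4, which binds fatty acids in capillaries and fat cells, read 1450, 2460 and 2350 FPKM against 0.685 to 1.29, a difference of 9.98 (SE 0.22, adjusted p = 1.2e-07). Gpihbp1, which holds lipoprotein lipase on capillaries, read 198 to 363 FPKM against 0 to 3.29, and Cd36, a fatty acid transporter also found on monocytes and platelets, 84.6 to 98.3 against 1.89 to 2.73. Fabp5, the relative of Fabp4 found in many cells, was the member that was lower, at 6.59 to 9.81 FPKM against 22.9 to 31.1.

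Matrix and basement membrane genes were higher in 21 of 22 members (median 3.90). Sparc read 721, 1050 and 1170 FPKM in bone EC and 1.3 to 2.08 in LSK, Igfbp7 539 to 769 against 4.08 to 7.45, and the basement membrane linker Nid1 56.2 to 65.5 against 0.478 to 1.44. Mmp9 is also a granule enzyme of neutrophils. It read 231 to 394 FPKM in bone EC and a mean of 22.5 in the irradiated endothelial cells. Neutrophil markers were low in the irradiated cells, but these also differ from bone EC by the radiation. Which cells carried Mmp9 in bone EC was not tested.

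Genes of vascular tone and coagulation gave 14 of 19 members higher, 3 lower and 2 neither. Tfpi, the tissue factor inhibitor, read 139 to 219 FPKM against 2.78 to 4.4, and Ramp2, the partner of the adrenomedullin receptor, 37.6 to 57.4 against 0.219 to 0.397. The receptor Calcrl itself was lower in bone EC (15.4 to 23.1 FPKM against 28.1 to 37.7; difference -0.69, adjusted p = 0.0099). Procr, the endothelial protein C receptor and a marker of blood stem cells, read 27.9 to 41.6 FPKM in LSK and 5.96 to 7.6 in bone EC, a difference of -2.25 (adjusted p = 1.9e-05). Vwf, the clotting factor stored in endothelial granules, was low in both groups, with 0.681 to 1.46 FPKM in bone EC and 2.33 to 3.89 in LSK, and is no member.

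**Figure D2:**
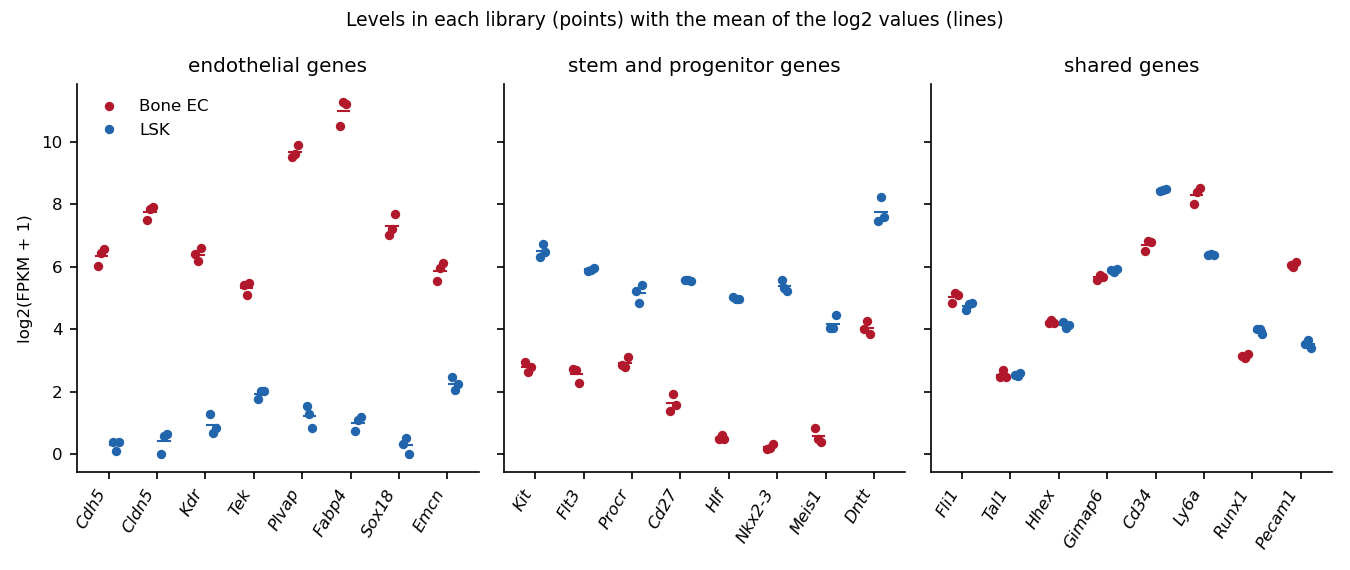
log2(FPKM + 1) of 24 genes in each of the 6 libraries (points; lines are means of the log2 values), bone EC in red and LSK in blue, grouped as endothelial, stem and progenitor, and shared genes. The groups do not overlap for any endothelial or progenitor gene shown, while Tal1 and Hhex overlap and Cd34 and Ly6a separate in opposite directions.

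Genes known from both blood stem cells and endothelium were examined one by one, since a shared gene need not be at a shared level. Of the 46 listed, 34 are members: 19 were higher in bone EC, 9 lower and 6 neither, with a median of 1.13 (0.50 with TPM), against 0.10 over all members. The 2 surface proteins used to find stem cells differed in direction. Ly6a, the Sca-1 gene, read 257, 332 and 366 FPKM in bone EC and 82.6, 83.4 and 82 in LSK, although LSK cells were sorted for Sca-1 protein. Cd34 read 339, 351 and 358 FPKM in LSK and 90, 112 and 110 in bone EC (difference -1.74, adjusted p = 1.8e-05). Both genes were thus abundant in each group, and neither pair of groups overlapped. Tie1, a receptor related to Tek, read 66.4 to 92.5 FPKM against 11.9 to 12.1, and Robo4, a guidance receptor of endothelium and stem cells, 60.2 to 68 against 5.01 to 5.85.

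Several shared genes showed no difference that passed the test as deposited. Fli1, an ETS factor of both lineages, read 28, 34.9 and 33.6 FPKM in bone EC and 23.4, 26.9 and 27.4 in LSK (difference 0.30, adjusted p = 0.08). Tal1, a founding factor of both lineages, read 4.56 to 5.53 FPKM against 4.7 to 5.08, with a mean just under the minimum. Hhex read 17.4 to 18.8 FPKM against 15.6 to 17.7 (adjusted p = 0.45). Gimap6, a GTPase of lymphoid cells, read 46.9 to 52.9 FPKM against 55.8 to 59.7 (adjusted p = 0.12). On the TPM scale all 4 differences were negative, -0.39, -0.65, -0.58 and -0.91. Others were lower in bone EC under each scaling. Runx1, required for the step from endothelium to blood, read 13.5 to 15.2 FPKM in LSK and 7.54 to 8.23 in bone EC (difference -0.81, adjusted p = 0.00065). Lmo2, a partner of Tal1, read 260 to 297 FPKM in LSK and 51.1 to 64.9 in bone EC, Etv6 51.3 to 68.2 against 11.4 to 14, and Ldb1 22.6 to 22.9 against 11.9 to 14.1. Meis1, a homeobox factor of stem cells, read 15.4 to 21 FPKM in LSK and 0.32 to 0.779 in bone EC. Sox17 was the reverse, with 7.97 to 9.23 FPKM in bone EC and at most 0.392 in LSK, and is no member. It is known from fetal stem cells and arterial endothelium.

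Ligands and receptors were then read across the 2 cell groups. A pair counted as present where the ligand averaged at least 5 FPKM in one group and the receptor at least 5 FPKM in the other. This is a statement on RNA levels, with no test of the pair and no evidence of contact. Of 44 pairs examined, 15 were present from bone EC to LSK and 11 from LSK to bone EC, 4 of them both ways. At a minimum of 10 FPKM, the numbers were 7 and 5.

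From bone EC, the chemokine Cxcl12, which keeps stem cells in the marrow, read 71.3, 141 and 168 FPKM, with 2.35 to 4.03 in LSK. Its receptor Cxcr4 read 55 to 67.4 FPKM in LSK and 42.5 to 62.8 in bone EC. On the deposited scale it did not differ beyond the spread (adjusted p = 0.19), but the same FPKM is a larger share of the LSK total. Kitl, the stem cell factor that binds Kit, read 4.65, 5.16 and 6.6 FPKM in bone EC and at most 0.5 in LSK, so that pair passed the 5 FPKM minimum only narrowly. Cxcl12, Kitl, Lepr and Adipoq are also genes of marrow stromal cells. Lepr read 7.91, 12.2 and 15.5 FPKM and Adipoq 27.9, 52.8 and 68.6 FPKM in the same 3 libraries, and the part of stromal RNA in these levels was not tested. Of 13 genes of leukocyte adhesion by endothelium, 10 were higher in bone EC, 2 lower (Icam1 and Cd34) and 1 neither. Vcam1 read 165 to 210 FPKM against 1.91 to 2.31, Sele 27.1 to 44.6 against 1.49 to 3.15 and Selp 34.7 to 46.3 against 5.08 to 5.51. Their receptors were in LSK, Itga4 at 6.07 to 8.12 FPKM, Cd44 at 24.9 to 30.3 and the selectin ligand gene Selplg at 97.8 to 125. Dll4 faced Notch1 at 5.96 to 8.07 FPKM in LSK, Il6 (18.4 to 19.9 FPKM in bone EC) faced Il6ra at 5.67 to 6.81, and Pdgfb (14.6 to 22.1) faced Pdgfrb at 9.4 to 11.3.

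In the other direction, Vegfa and Angpt1 in LSK faced Kdr, Flt1 and Tek in bone EC, at the levels given above; Flt1 read 15.1 to 19.6 FPKM in bone EC and at most 0.533 in LSK. Icam1, an adhesion ligand usually studied on endothelium, was higher in LSK, at 150, 131 and 277 FPKM against 73, 56.8 and 56.3 (difference -1.5, adjusted p = 0.0017), with the highest value in LSK replicate 3. Its receptor Itgal, a leukocyte integrin, read 23.8 to 36.5 FPKM in bone EC. Tgfb1 was at 43.9 to 58.6 FPKM in LSK and 47.4 to 51 in bone EC, with Tgfbr2 in both groups, and so counted both ways. Pairs that end in Itgal, Cx3cr1 or Il2rb in bone EC rest on receptors of leukocytes, whose markers were present there. Itgb3 is a receptor of platelets. Megakaryocyte and platelet markers summed to 115 to 172 FPKM in bone EC and 97.7 to 140 in LSK, with 2 members higher and 2 lower. Flt3l, Thpo, Csf3 and Il7, cytokines of stem cells and early blood cells, were under 5 FPKM in both groups; Flt3l read 0.515 to 1.06 FPKM in bone EC and 1.33 to 2.35 in LSK.

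**Figure D3:**
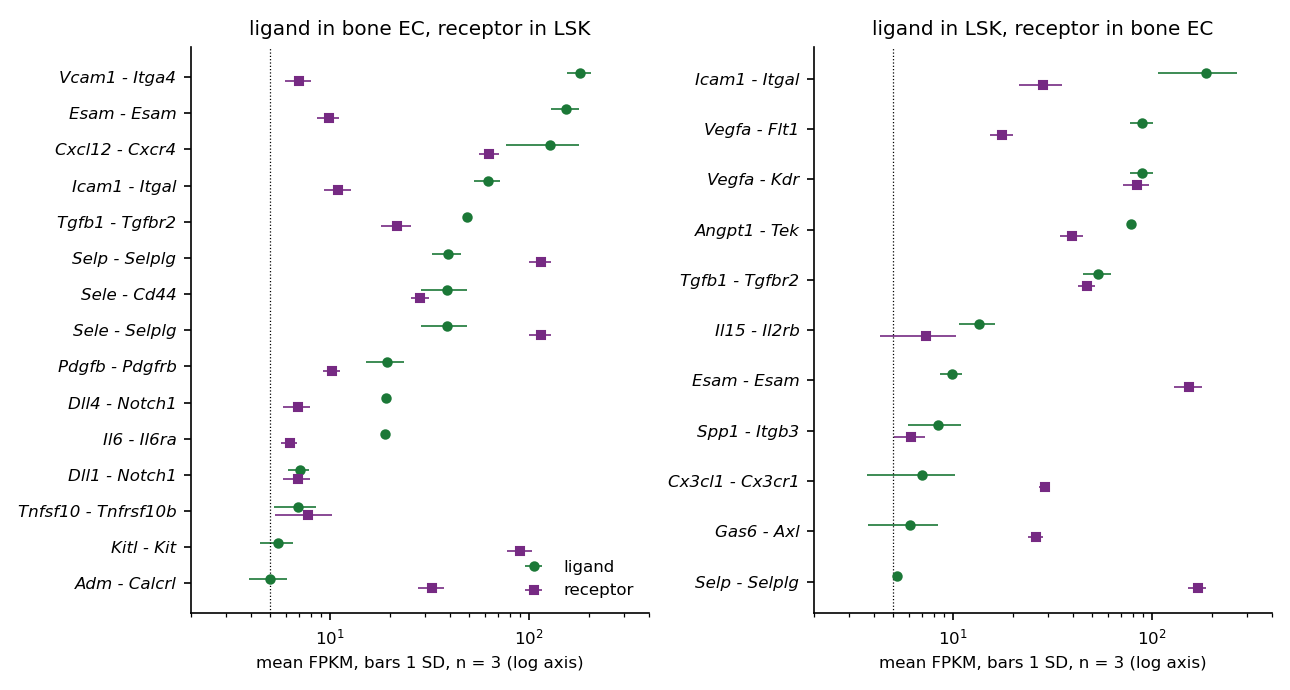
Mean FPKM (log axis, bars 1 SD, n = 3) of the ligand in one cell group and the receptor in the other for the 15 pairs present from bone EC to LSK (left) and the 11 present from LSK to bone EC (right); the dotted line is 5 FPKM. Vcam1, Cxcl12 and Esam are the highest ligands of bone EC, and Icam1, Vegfa and Angpt1 those of LSK.

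On the LSK side, the list of stem cell transcription factors had 12 of 21 members lower in bone EC, 3 higher and 6 neither (median -0.81). Hlf, a leucine zipper factor of blood stem cells, read 31.9, 30.2 and 30.1 FPKM in LSK and 0.409, 0.538 and 0.412 in bone EC, a difference of -4.45 (SE 0.13, adjusted p = 2.3e-07). Nkx2-3, a homeobox factor, read 47.2, 39 and 36.1 FPKM against 0.129, 0.155 and 0.261, a difference of -5.14 (SE 0.15, adjusted p = 2.3e-07). Hlf averaged 1.94 FPKM in Lin- cells and 0.809 in whole marrow, and Nkx2-3 0.505 and 0.415, so LSK stood above both other blood cell groups, which used another kit. Hoxa9, which falls under the member minimum, read 5.94 to 6.05 FPKM against 0.734 to 1.29. The 3 higher genes were Cdkn1c, Gfi1b and Zfp521; the last was not called with TPM. Cdkn1c, a cell cycle inhibitor that the list holds though it is not a transcription factor, read 38.2 to 59.4 FPKM in bone EC and 4.52 to 8.75 in LSK.

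Of 31 surface genes of stem and progenitor cells, 20 were higher in bone EC, 7 lower and 4 neither, with a median of 0.65 that turned to -0.05 with TPM; 13 of the 20 were called under each scaling. The list thus goes against its name by count, and its members in bone EC include receptors of mature blood cells. Cd52 read 383 to 478 FPKM against 32.7 to 50 and the macrophage receptor Csf1r 55.3 to 77.4 against 3.96 to 4.51. Epor, the erythropoietin receptor, which endothelium is also known to carry, read 24.2 to 38.6 FPKM against 0.988 to 1.35. The genes lower in bone EC included Kit, Flt3, Cd34, Procr, Cd27 and Gpr171. Cd27 read 45.5 to 47.3 FPKM in LSK and 1.64 to 2.81 in bone EC, and Flt3 differed by -3.34. Cd48, which marks progenitors other than stem cells, read 58 to 74.8 FPKM in LSK and 86.5 to 90.4 in bone EC, and this difference was not called with TPM. The most abundant genes at least 4-fold lower in bone EC, predicted genes left out, were Ctla2a (852, 572 and 819 FPKM in LSK against 66.9, 117 and 124), Dusp2, Gpr56, Lmo2, H2afy, Nr4a2, Dntt, Klf10, Hilpda, Ptgs2, Ifitm1 and Ctla2b. Dntt, the terminal transferase of lymphoid progenitors, read 174, 302 and 191 FPKM in LSK against 13.3 to 18.1. Gpr56, an adhesion receptor of stem cells, read 277 to 307 FPKM against 45.9 to 67.5. Ctla2a and Ctla2b share exon bases with annotated neighbours, so reads could be split between them.

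Most genes of ribosome biogenesis were lower in bone EC than in LSK. Of 31 ribosome biogenesis genes, 23 were lower in bone EC, 1 higher and 7 neither, with a median of -0.93, below the 0.10 of all members, and all 23 were lower under each scaling. Ppan, a processing factor of the large subunit, read 42, 42.6 and 35.5 FPKM in LSK and 6.44, 6.66 and 7.04 in bone EC (difference -2.41, SE 0.12, adjusted p = 2.2e-06). Nop58, a core protein of the particles that guide ribosomal RNA methylation, read 108 to 128 FPKM against 32.8 to 39.5, and the nucleolar protein Gnl3 36.6 to 45.5 against 10 to 13. Bysl was the exception, at 40.3 to 41.4 FPKM in bone EC and 12.6 to 15.8 in LSK; it shares exon bases with Ccnd3, which was higher as well. Cytosolic ribosomal proteins were lower in 29 of 82 members and higher in 1, Rps4y2, which was not called with every scaling, with a median of -0.46. Translation factors gave 11 lower, 4 higher and 15 neither of 30. Splicing genes gave 21 lower, 1 higher and 18 neither of 40, among them the splicing factor Srsf7 at 130 to 147 FPKM in LSK and 48.1 to 63.1 in bone EC. Chromatin genes gave 14 lower, 3 higher and 12 neither of 29. Dnmt3b, a DNA methyltransferase, read 14.5 to 16.3 FPKM against 1.28 to 1.51, and Smarcc1, a subunit of remodelling complexes, 30.7 to 42.3 against 9.87 to 12.4. Of the genes higher in bone EC, 1 of the 4 translation factors, 1 of the 3 chromatin genes and 0 of the 1 splicing gene were called under each scaling. In Lin- cells, made with another kit, ribosome biogenesis genes summed to a mean of 1890 FPKM, against 1280 in LSK and 637 in bone EC. As shares of the total, Lin- and LSK changed order, with 0.371% in Lin-, 0.46% in LSK and 0.14% in bone EC. Ribosomal proteins summed to 48100 FPKM in Lin-, 16900 in LSK and 12500 in bone EC, or 9.45%, 6.03% and 2.73% of the totals.

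The promoter windows of Hlf and Ppan, a stem cell factor and a ribosome gene that were both lower in bone EC, are shown because both hold the same palindrome. The Hlf window is chr11:90390888-90391167 on the minus strand and the Ppan window chr9:20887925-20888204 on the plus strand. Capitals mark TGACGTCA, the full site of CREB and ATF factors, at base 242 of the Hlf window and base 216 of the Ppan window. In Ppan they also mark 2 ETS cores, CAGGAAG at base 236 and CCGGAAG at base 269. The palindrome lies in 1.83% of the 27025 windows, CAGGAAG in 12.1% and CCGGAAG in 8.70%. These 2 genes were picked after their sequences were seen, so the shared letters are a description of 2 windows.
Hlf promoter: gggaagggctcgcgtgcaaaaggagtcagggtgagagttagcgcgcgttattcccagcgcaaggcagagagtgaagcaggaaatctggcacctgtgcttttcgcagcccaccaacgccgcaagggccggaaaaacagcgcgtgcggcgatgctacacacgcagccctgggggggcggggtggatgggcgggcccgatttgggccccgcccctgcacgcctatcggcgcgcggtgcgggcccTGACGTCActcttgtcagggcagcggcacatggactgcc
Ppan promoter: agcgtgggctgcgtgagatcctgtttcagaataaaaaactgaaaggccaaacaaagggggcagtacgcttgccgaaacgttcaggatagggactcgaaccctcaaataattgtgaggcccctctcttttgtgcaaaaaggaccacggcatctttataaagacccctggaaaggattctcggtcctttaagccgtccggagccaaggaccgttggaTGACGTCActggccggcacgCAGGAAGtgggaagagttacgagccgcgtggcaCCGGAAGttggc

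Cell cycle genes did not fall on one side. Of 42 members, 17 were higher in bone EC, 15 lower and 10 neither, and the median of 0.30 turned to -0.37 with TPM and -0.08 with voom. Under each scaling 10 of the 17 and all 15 lower ones were called. Mcm2 to Mcm7, the subunits of the replication helicase, were all lower in bone EC, Mcm6 at 67.6 to 76.3 FPKM against 146 to 200. Cdk6, a kinase of the G1 phase, read 6.86 to 8.05 FPKM against 32.6 to 39.4, and Cdkn1a, the p21 inhibitor, 50.8 to 83.4 against 240 to 289. In contrast the nucleotide enzyme Rrm2 read 102 to 110 FPKM in bone EC and 21.4 to 30 in LSK, and the inhibitor Cdkn2c 14 to 19.7 against 2.29 to 4.88. Mki67, the common proliferation marker, was named here after its values were seen. It averaged 18.5 FPKM in bone EC and 14.3 in LSK, a difference of 0.35 that did not pass on the deposited scale. The irradiated endothelial cells had a mean of 15.7 FPKM for Rrm2 and 3.16 for Cdkn2c.

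Energy metabolism gave small differences on the deposited scale. Nuclear genes of the respiratory chain were higher in 41 of 79 members, lower in 2 and neither in 36, and their median of 0.46 turned to -0.22 with TPM; 6 of the 41 were called higher under each scaling. Genes of the mitochondrial genome gave 5 higher and 9 neither, and none of these calls held under each scaling (median 0.54, or -0.17 with TPM). Glycolysis gave 9 higher, 5 lower and 8 neither of 22, with a median of 0.19 that turned to -0.50 with TPM and -0.21 with voom, and 4 of the 9 were called under each scaling. Within it the lactate transporter Slc16a3 read 26.3 to 51.9 FPKM in bone EC against 2.09 to 2.46, while Ldhb, a lactate dehydrogenase subunit, read 14 to 15.3 against 30.4 to 41.2. Slc16a3 averaged 126 FPKM in whole marrow and 3.21 in irradiated endothelial cells.

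Of 27 interferon response genes, 19 were higher in bone EC, 4 lower and 4 neither (median 0.89, or 0.26 with TPM); 12 of the 19 and all 4 lower ones were called under each scaling. Rsad2 read 125, 103 and 90.7 FPKM against 11.2 to 18.3, Isg15 94.3 to 103 against 15.3 to 26.6 and Ifitm3 994 to 1320 against 231 to 305. Irf1, a transcription factor of the pathway, was lower (42.6 to 47.7 FPKM against 73.6 to 78.8), and Ifitm1 lower by at least 4-fold. Antigen presentation was divided, with 10 of 20 higher, 5 lower and 5 neither and a median of 0.26 that turned to -0.44 with TPM and -0.14 with voom. Of the 10, 6 were called under each scaling. The class II genes H2-Aa, H2-Ab1 and H2-Eb1 and the invariant chain Cd74 were higher, the last at 2360, 2610 and 2180 FPKM against 102 to 152. Of the class I genes, H2-D1 and H2-T23 were higher as deposited, while H2-Q4, H2-Q6 and H2-Q7 were lower, H2-Q6 at 56.5 to 66.4 FPKM against 131 to 153; these genes are close copies of each other, so reads could be split among them. Early response and dissociation stress genes gave 8 higher, 8 lower and 8 neither of 24. Cyr61, a target of YAP signalling, read 76.5 to 103 FPKM in bone EC against 1.07 to 1.83, while the nuclear receptor Nr4a1 read 1620 to 1760 FPKM in LSK against 376 to 585 and Nr4a2 205 to 238 against 13.8 to 24.9. Cytoskeletal genes were higher in 27 of 37 members and lower in 2 (median 1.08, or 0.39 with TPM), and 18 of the 27 were called under each scaling, with Tubb2a at 28.3 to 31.3 FPKM against 3.19 to 3.9 and Stmn1, a regulator of microtubules in dividing cells, lower at 72 to 84.9 against 207 to 237.

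**Figure D4:**
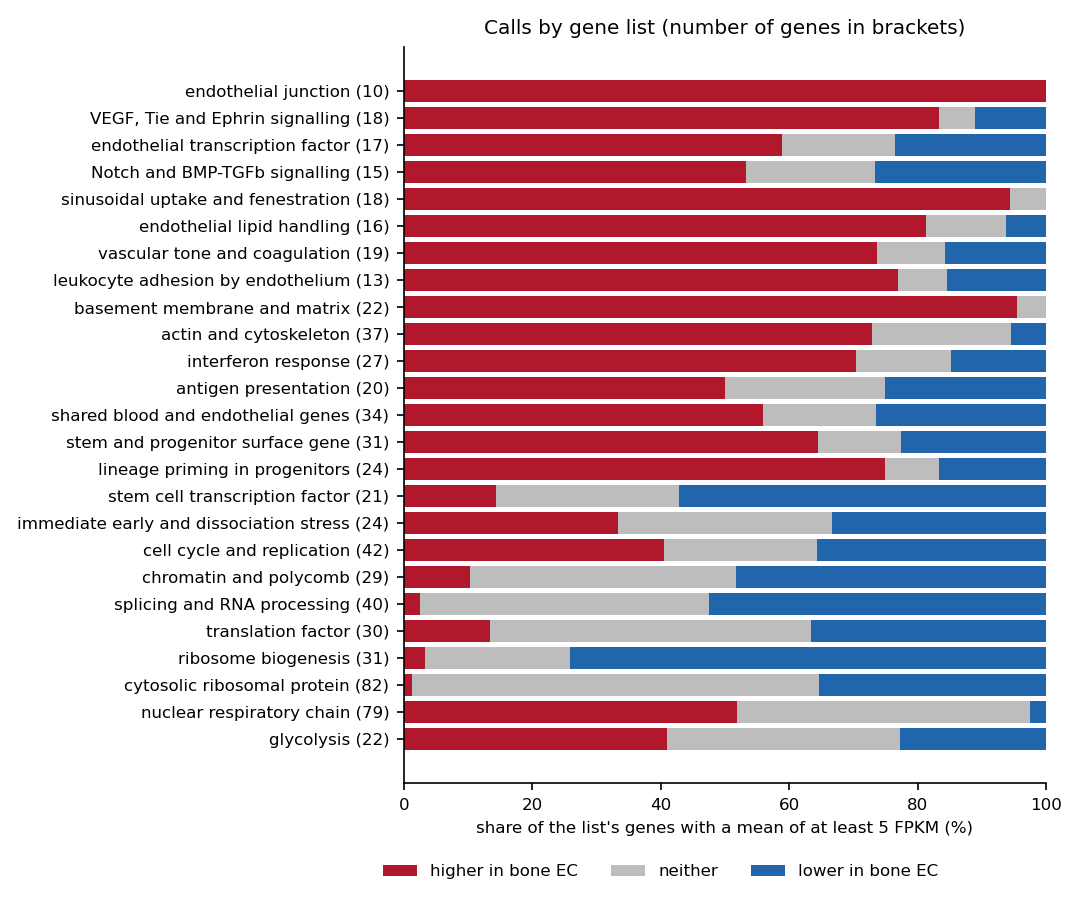
Share of each gene list's members (in brackets, their number) called higher in bone EC (red), lower (blue) or neither (grey) on the deposited scale. Junction, sinusoid and matrix lists are almost all red, ribosome biogenesis is mostly blue, and the cell cycle list is divided.

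Markers of mature blood cells were among the highest genes of the bone EC libraries. Of the 12 most abundant genes at least 4-fold higher there, S100a8, S100a9, Ngp, Camp, Lyz2 and Retnlg are granule or secreted proteins of neutrophils and other myeloid cells, Hbb-bs, Hbb-bt, Hba-a1 and Hba-a2 are globins, and Cd74 and the actin-binding peptide Tmsb4x are shared by many cells. S100a8 read 17200, 19100 and 19100 FPKM in bone EC and 63.5, 47.9 and 109 in LSK. The 15 neutrophil markers, all members and all higher, summed to 48200 to 48500 FPKM in bone EC, 10.7% of the total, and to 196 to 269 FPKM in LSK. The 11 erythroid markers, all higher, summed to 42700 to 46400 FPKM, 9.80% of the total, against 3390 to 4400. Monocyte and macrophage markers were higher in all 12 members (7080 to 8620 FPKM against 219 to 240) and B cell markers in all 10 (1170 to 1680 against 146 to 202). Those of eosinophils, basophils and mast cells were higher in 10 of 11. Markers of early lineage choice in progenitors were higher in 18 of 24, led by Prss34, Elane, Klf1 and Ms4a3, genes of basophils, granulocytes and erythroid cells. T and NK cell markers summed to 137 to 145 FPKM in bone EC and 145 to 154 in LSK, which is 0.031% and 0.054% of the totals. Of their 4 members, Trac, Ccl5 and Klrd1 were higher in bone EC, while Cd3d, Cd3e and Cd3g were no members. Nkg7 was higher in LSK (121 to 143 FPKM against 55.5 to 67.8).

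Stromal, bone and mural markers were smaller. Mesenchymal stromal markers summed to 149 to 338 FPKM in bone EC and 22.5 to 27.6 in LSK, and osteoblast and chondrocyte markers to 104 to 191 against 34 to 44, although 2 of the 4 members of the latter list were higher and 2 lower. Mural markers summed to 177 to 254 FPKM against 5.21 to 9.5, nearly all of it in Kcnj8, Abcc9 and Mcam. Mcam is also known from endothelium, and which cells carried these genes was not tested. Acta2 averaged 8.36 FPKM and Tagln 3.25, and like Myh11, Cspg4 and Notch3 they were no members. The part of each of these cell types in a given gene's difference was not tested. In the irradiated bone EC libraries, neutrophil markers summed to 1070 to 4680 FPKM (0.597% of the total) and erythroid markers to 454 to 1130 FPKM, far below untreated bone EC. B cell markers averaged 1860 FPKM in sum, against 1390 in untreated bone EC, and plasma cell markers 931 against 209, so not every blood cell list was lower. Meanwhile the junction genes summed to 1810 to 2060 FPKM, above its 764 to 959. Cdh5, Kdr, Plvap and Fabp4 averaged 191, 313, 2950 and 6660 FPKM there, and S100a8, Hbb-bs and Ngp 900, 173 and 399. In whole marrow the order was reversed, with S100a8 at a mean of 32900 FPKM and Plvap at 0.392.

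**Figure D5:**
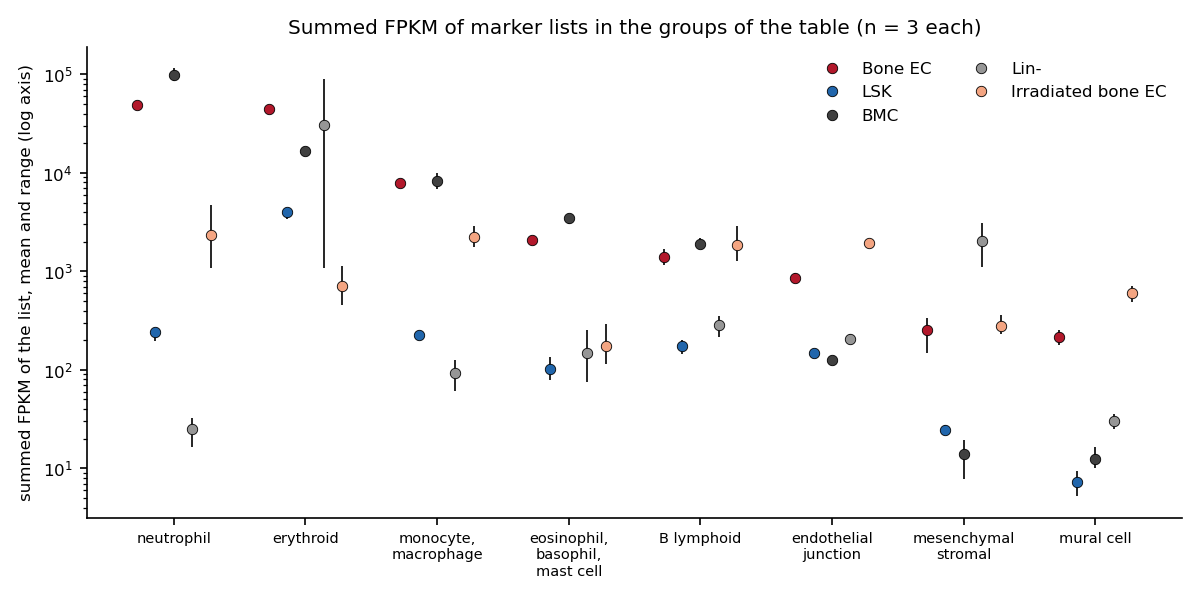
Summed FPKM (log axis; points are means and lines the range of 3 libraries) of 8 marker lists in the 5 groups of the table. Neutrophil and erythroid sums of bone EC lie well above those of LSK and of irradiated bone EC, while the junction sum of irradiated bone EC lies above that of untreated bone EC.

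Groups that share no library with the comparison describe the members further. Irradiated bone EC and whole marrow differ in kit and treatment, so these are ratios of means with no test. Of the 852 members at least 4-fold higher in bone EC than in LSK, 410 (48.1%) were also at least 4-fold higher in irradiated bone EC than in whole marrow, against 14.5% of all members. A further 213 (25%) were at least 4-fold lower, against 11%. Among the 258 members at least 4-fold lower in bone EC, the shares were 4.65% and 10.5%. The diaphysis endothelium, whose table was normalized separately, also held both endothelial and blood cell genes. Cldn5 averaged 477 FPKM, Kdr 53.1, Plvap 1500 and Fabp4 4380, with S100a8 at 14800 and Hbb-bs at 9970, and Hlf at 0.204. Single genes differed from bone EC in both directions, such as Cldn5 (216 FPKM in bone EC) and Cdh5 (27.6 FPKM in diaphysis and 81.5 in bone EC).

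Some of the genes at the ends of the comparison fell outside the lists and were chosen after their values were seen. Lrg1, a secreted protein of endothelium and neutrophils, read 726, 748 and 1190 FPKM in bone EC and 0 to 0.969 in LSK. Ubd, a ubiquitin-like protein, read 129, 188 and 310 FPKM in bone EC and was listed at 0 in all 3 LSK libraries. Darc, the atypical chemokine receptor of venular endothelium and red cells, read 172, 238 and 350 FPKM against 0 to 2.26. On the LSK side, Zfp488 read 178, 105 and 94.1 FPKM against 1.54 to 2.66, Rab38 57.1 to 69.5 against 1.3 to 2.89 and Muc13 42.7 to 56.3 against 1.4 to 2.25.

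Predicted genes (names of the form Gm and a number) were 6.43% of the fitted members but 67 of the 117 members at least 8-fold lower in bone EC (57.3%). A cluster of 10 lies at the start of chromosome 9 (bases 3000282 to 3038316 in GENCODE vM21) and its sum was 1840 to 2470 FPKM in LSK and 6.27 to 11.8 in bone EC, and a pair on chromosome 2 led by Gm10800, named after its values were seen (8070, 7530 and 5280 FPKM in LSK against 37.3 to 53.4) showed the same. Reads in genes of other tissues were also more frequent in LSK. Of 1097 olfactory receptor genes, 37.4% to 54.1% had reads in an LSK library and 0.729% to 0.82% in a bone EC library, and of 324 vomeronasal receptor genes 45.4% to 62.0% against 0.617% to 1.54%. The 95th percentile of the olfactory receptors in LSK was 1.17 to 1.85 FPKM, under the minimum of 5 FPKM, and 1 of each family, Olfr613 and Vmn1r58, is a member. The part of such scattered reads in the level of a low gene in LSK was not tested.

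Sex-linked genes differed as well, and the labels give no sex. Xist, transcribed from the inactive X chromosome of female cells, read 8.43, 3.56 and 9.16 FPKM in bone EC and at most 0.092 in LSK. The Y-linked Ddx3y read 25.2, 19.9 and 31.1 FPKM in LSK and 0.0589, 6.55 and 2.91 in bone EC. For X-linked and Y-linked members, sex and cell type cannot be told apart. The same holds for any other member whose level depends on sex.

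At the edge of the rule, the members just inside were Gm10392 (3.47 to 6.05 FPKM in bone EC and 4.52 to 6.05 in LSK), Gm5914 and Wbscr16. Just outside lay Cd2 (6.96 to 11.3 FPKM against 0.208 to 0.752), Cyp4x1 (at most 0.312 in bone EC against 7.59 to 13.8) and adapt33_1. A gene confined to a single group needs about 10 FPKM there to enter, which is a smaller share of the total in bone EC than in LSK. Low genes of a single group, such as Mecom (4.03 to 5.37 FPKM in LSK and at most 1.14 in bone EC), are thus not among the members. Of the members called higher in bone EC, 302 averaged under 1 FPKM in LSK. Of those called lower, 82 averaged under 1 FPKM in bone EC. On the deposited scale, abundant members that did not differ beyond the spread included Junb (522 to 718 FPKM against 667 to 772) and the mitochondrial genes mt-Co2, mt-Co3 and mt-Cytb. The standard deviation exceeded 50% of the mean for 235 members in bone EC and 368 in LSK.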

How the data were processed

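The values are FPKM deposited by the authors, 1 table per experiment. Per the submitters' processing notes, bcl2fastq 2.19.1.403, TopHat2 2.1.1, HTSeq 0.6.1 and DESeq2 1.18.1 were used with mm10; their settings and the gene annotation are not given in the sources used here. The table's 27 gene names turned into dates were left out. Whole reads could be recovered from the FPKM of 100% of genes with reads (tolerance 0.005), which gave the depths. Genes with at least 1 FPKM in 3 of the 6 libraries were fitted on log2(FPKM + 1) with limma 3.58.1 (R 4.3.3; eBayes with trend, two-sided, Benjamini-Hochberg over 14321 genes, threshold 0.05), on bone EC and LSK libraries alone; the fit was tested on simulated data. An exact permutation test of 3 against 3 cannot go below 0.1 and was not used. Named genes are the 12 most abundant members at least 4-fold apart in each direction, 6 abundant unchanged members, all shared and paired genes, up to 4 called genes of each list and direction, label markers and the edge of the rule; others are said to be chosen later. The members and lists were chosen with earlier results of these data known. Calls per list are counts with no set test. Gene positions are from GENCODE vM21. Alternatives were other pseudocounts, filters, scalings, fits, member minimums, a replicate block and leaving out each library. Some members are not reported here by name.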

Additional observations from a re-analysis of the deposited data

How the results depend on the processing

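Of the 5034 members called, leaving out each library in turn gave 4354 to 4998, with 2599 to 2876 higher and 1755 to 2122 lower. Counts of calls in each direction moved by over 1.5 times only with TPM (1539 higher and 4442 lower), with voom (3533 lower), with members at a mean of at least 10 FPKM (3310 called, 1223 lower) and with members at 5 FPKM or more in each group (3354 called, 1905 higher), the last 2 because fewer genes were counted. At a minimum of 10 FPKM, 7 pairs from bone EC to LSK and 5 from LSK to bone EC were present. Counting protein-coding members alone, chosen after seeing the data, gave 4411 calls. List medians turned in sign with TPM for Notch and BMP signalling (-0.07), surface genes (-0.05), cell cycle (-0.37), glycolysis (-0.50), mitochondrially encoded genes (-0.17), antigen presentation (-0.44) and the respiratory chain (-0.22), and with voom for cell cycle (-0.08), glycolysis (-0.21) and antigen presentation (-0.14). Replicate numbers did not pair the libraries (correlations of deviations 0.006, -0.048 and 0.021 for numbers 1 to 3); with the replicate number as a block, 4767 members were called, 2796 higher and 1971 lower. No named gene was called in opposite directions by any of these fits. Depth limits LSK more, since its libraries hold fewer reads, and a level near 1 FPKM there rests on few reads.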
